A study of Mus musculus with 13 samples.

Results

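Intronic AGO peaks are the places inside annotated introns where Argonaute (AGO), the protein that carries microRNAs (miRNAs) to their target RNAs, left crosslinked RNA fragments in mouse cortex. They were taken from the deposited peak table by its own region label: every peak with a position whose first region label was intron, without the ribosomal RNA precursor Rn45s. This gave 3810 of the 18284 peaks with a position, 20.9% of those outside Rn45s, with 103740 sequenced fragments (tags). Of the 3822 intronic rows, 12 belonged to Rn45s and were left out with their 15799 tags.

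AGO acts mainly in the cytoplasm on mature mRNA, where introns have been spliced out, and most of its known regulatory sites lie in 3'UTRs. Introns are present in unspliced nuclear RNA and in retained-intron transcripts, and many miRNA hairpins and small nucleolar RNAs are themselves cut out of introns of host genes. An intronic tag can therefore come from several kinds of RNA, and the peak table gives only its place.

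The libraries were made by BrdU-CLIP, in which ultraviolet light fixes AGO to RNA and the copied fragments are captured by an incorporated base analog. Cerebral cortex came from wildtype C57BL6 mice at 7 to 8 weeks of age, and all 13 libraries share that strain. The 4 sham libraries (replicates 1, 2, 3 and 5) came from animals that were anesthetized with arteries exposed and no filament. The 4 contralateral (replicates 1, 2, 4 and 5) and 5 ipsilateral libraries (replicates 1 to 5) came from the unoccluded and the occluded hemisphere after middle cerebral artery occlusion (MCAO) for 35 min and 3 h of recovery. Surgery was accepted by laser Doppler blood flow, and high and low molecular weight AGO complexes were pooled. The replicate number marks a set of libraries prepared together from 1 surgery day. Set 1 is sham 1, contralateral 1 and ipsilateral 1. How many animals went into a library, and whether ipsilateral and contralateral libraries of a number share animals, is not stated in the labels. The title of the series names the acute regulation of brain glutamate after ischemic stroke as its purpose.

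Depth was uneven. Without Rn45s, the libraries of set 1 held 61984 to 67494 peak tags and the other 10 held 3748 (ipsilateral 5) to 35375. Over all regions, 9 of 10 neuron marker genes (4563 tags), 6 of 8 astrocyte markers (5274) and 5 of 10 oligodendrocyte markers (911) had a peak, against 1 of 8 microglial (24 tags), 2 of 7 vascular (34) and 1 of 7 blood markers (23). Shares below are tags per 100 (%) or per 10000 peak tags of the same library, Rn45s left out. The data hold no separate RNA level, so a changed share can be more bound RNA or more AGO on it. In this bulk tissue, fewer cells of a type and less RNA per cell cannot be told apart.

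Most of the peak windows were 80 bases long (3803 of 3810). Their sequence could be read for 263 that lie wholly in a GENCODE M21 transcript (build GRCm38, the assembly of mm10). The peak table has no strand column, so each window is written 5′ to 3′ on the strand of the annotated exon. The first 4 windows are shown because each held an unbroken run of T (in capitals, and a run of A on the opposite strand). They were the 4 with most tags among windows with such a run, outside annotated UTRs, in which at least 95% of tags overlapped 1 point, and this choice was made after values were seen. The window named Acss2 lies at chr2:155573411-155573490 in a retained-intron transcript of Gss on the minus strand. Arrdc3 lies at chr13:80885230-80885309 in the noncoding RNA 1700023H06Rik (minus), Meg3 at chr12:109564879-109564958 in the exon of this noncoding RNA (plus) and C1qbp at chr11:70981626-70981705 in its own retained intron (minus). The Malat1 window, at chr19:5796244-5796323 in the exon of this nuclear noncoding RNA (minus), had a smaller share in set 1 and holds no such run. The Rpl7a window, at chr2:26912526-26912605 (plus), covers the snoRNA gene Gm24134, which is in capitals.
Acss2: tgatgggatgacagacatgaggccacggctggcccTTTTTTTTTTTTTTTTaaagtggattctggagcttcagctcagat
Arrdc3: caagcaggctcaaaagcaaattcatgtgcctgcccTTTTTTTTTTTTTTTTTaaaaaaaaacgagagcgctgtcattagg
Meg3: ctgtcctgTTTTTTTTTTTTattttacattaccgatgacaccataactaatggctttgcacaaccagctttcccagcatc
C1qbp: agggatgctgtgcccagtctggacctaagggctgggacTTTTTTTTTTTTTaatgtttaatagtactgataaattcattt
Malat1: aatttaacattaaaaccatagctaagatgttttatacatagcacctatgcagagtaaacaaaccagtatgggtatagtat
Rpl7a: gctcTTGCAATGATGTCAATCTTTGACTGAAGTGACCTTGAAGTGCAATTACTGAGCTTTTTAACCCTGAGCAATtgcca

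Some intronic peaks sit on miRNA hairpins. The mature miRNAs at the hairpin peaks that the results below turn on are given from the RefSeq miRNA table (GRCm38.p6), with the seed, the bases 2 to 8 that pair with targets, in capitals. The peak windows of Smc4 (hairpin Mir16-2, mature arm at chr3:69009918-69009939, plus strand) and of Mir16-1 (chr14:61631936-61631957, minus) cover the same mature miRNA, so they share a seed and a sequence. The other arms lie at chr7:96249450-96249472 in Tenm4 (plus), chr10:126995543-126995564 at Mir26a-2 (plus) and chr1:23272274-23272295 at Mir30a (plus). A further peak of this kind, at Mir30d, is named only.
miR-16-5p: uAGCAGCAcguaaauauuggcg
miR-708-5p: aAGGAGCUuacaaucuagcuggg
miR-26a-5p: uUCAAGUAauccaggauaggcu
miR-30a-5p: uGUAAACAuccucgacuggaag

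The intronic peaks were many and mostly thin. Their totals over the 13 libraries ran from 3 to 1617 tags, with a median of 10 and quartiles of 6 and 21. The 153 peaks with at least 100 tags held 44.3% of the intronic tags, and the 1713 with fewer than 10 held 10.3%. They fell in 1948 named host genes, of which 1474 had 1 intronic peak and 39 had 10 or more, and 90 peaks (2452 tags) had no gene name. The median peak had a tag in 6 libraries, and 14 peaks had one in all 13. Every peak of the table had tags in at least 3 of the 5 replicate sets, so no peak could be private to set 1.

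Of the 3810 windows, 3490 lay inside the named gene in M21 and 3303 of these in its introns. The median distance from the nearest exon of the host was 6273 bp (quartiles 1296 and 30238 bp). Within 1000 bp of an exon lay 700 (21.2%), and beyond 10000 bp lay 1392 (42.1%). The label intron was not always shared by M21: 376 windows (9.87%) overlapped an exon of some M21 gene. These included all 9 Malat1 peaks (2324 tags) and 13 peaks of the noncoding RNA Meg3 (616 tags).

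Intronic peaks came in 2 shapes. Each row name of the table carries a number that never exceeded the tag count of its peak in any of the 18284 peaks, and it is read here as the height of the summit. Where it reached 95% of the tags, nearly all fragments overlapped a single point, and the peak is called single-summit. Among peaks with at least 20 tags, 86.4% of 1011 intronic peaks were single-summit, against 6.95% of 1886 3'UTR peaks and 6.31% of 618 coding (CDS) peaks. Deep intergenic peaks resembled the intronic ones, with 92.2% of 400. Height equalled the tag count exactly in 788 of the 1011 intronic peaks.

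Among intronic peaks with at least 10 tags, 1502 were single-summit (78786 tags in 1258 host genes) and 595 were spread (14304 tags in 263 host genes). The median single-summit peak lay 2553 bp from the nearest exon of its host in a gene of 113583 bp, and the median spread peak 12449 bp away in a gene of 455617 bp. Host genes with 1 intronic peak and those with 10 or more differed in shape: 89.8% of 1044 peaks in the former and 15.2% of 309 in the latter were single-summit. Spread peaks thus lay farther from exons and in longer genes than single-summit peaks did.

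**Figure D1:**
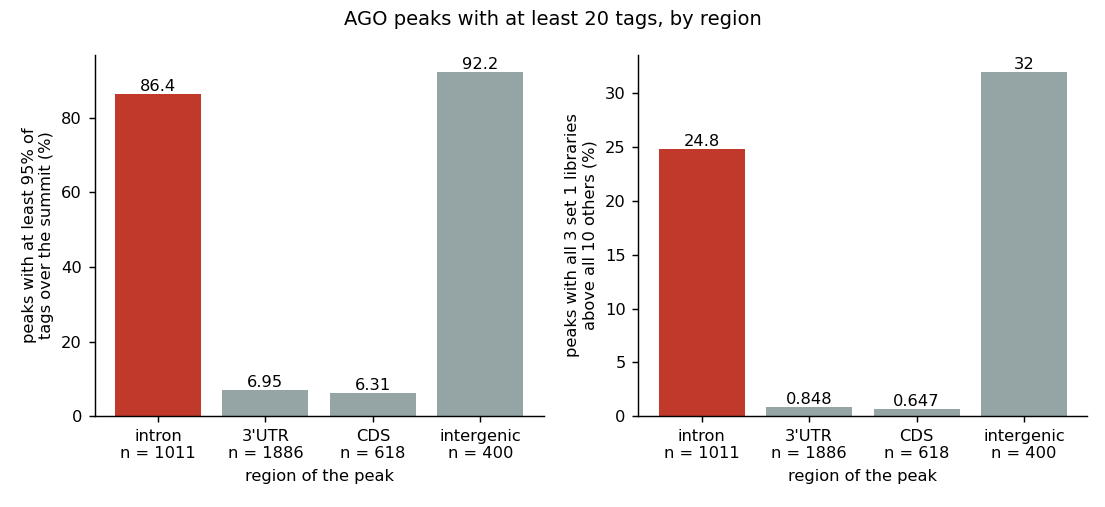
AGO peaks with at least 20 tags by annotated region (bars, number of peaks under each). The left bars give the percentage whose summit holds at least 95% of the tags and the right bars the percentage with all 3 set 1 libraries above all 10 others. Introns (86.4% and 24.8%) stand with intergenic peaks and far above 3'UTR and CDS peaks in both.

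The share of a library's tags that lay in introns differed more between set 1 and the other libraries than between groups. In sham libraries 1, 2, 3 and 5 it was 37.2%, 19.7%, 30.4% and 15.1%. In contralateral libraries 1, 2, 4 and 5 it was 32.6%, 20.7%, 13.01% and 13.7%. In ipsilateral libraries 1 to 5 it was 39.3%, 15.0%, 17.7%, 16.1% and 16.2%. The 3 libraries of set 1 were the highest of their groups and above all 10 others, although sham 3 came close. Counting error is small beside this: the widest 95% Wilson interval, of ipsilateral 5, ran from 15.1% to 17.4%.

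The intronic share averaged 25.6 ± 10.0% in sham (SD, n = 4), 19.98 ± 9.08% in contralateral (n = 4) and 20.9 ± 10.3% in ipsilateral cortex (n = 5). The groups overlapped throughout, and their differences (-4.70 percentage points from sham to ipsilateral and 0.895 from contralateral to ipsilateral) were smaller than the SD within each group. Without set 1 the means were 21.7 ± 7.87% (n = 3), 15.8 ± 4.24% (n = 3) and 16.3 ± 1.11% (n = 4). Set 1 averaged 36.4 ± 3.45% (n = 3) and the other libraries 17.8 ± 5.07% (n = 10, 13.01% to 30.4%). Set 1 was also the most deeply sequenced, so set and depth cannot be told apart. Among the other 10 libraries, sham 3 with 17546 tags had 30.4% and ipsilateral 3 with 35375 had 17.7%.

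Single-summit peaks carried that difference. They took 31.0%, 26.3% and 35.4% of the tags in sham 1, contralateral 1 and ipsilateral 1, against 1.67% to 22.5% (median 9.46%) in the other 10 libraries. Spread intronic peaks took 3.63%, 4.05% and 2.22% in set 1 and 3.00% to 6.64% (median 3.99%) in the rest, so their ranges overlapped. When each library was thinned to 3748 tags, set 1 was expected to show a tag in 656 to 703 intronic peaks and the others in 290 to 727. The ratio of the means was 1.45.

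**Figure D2:**
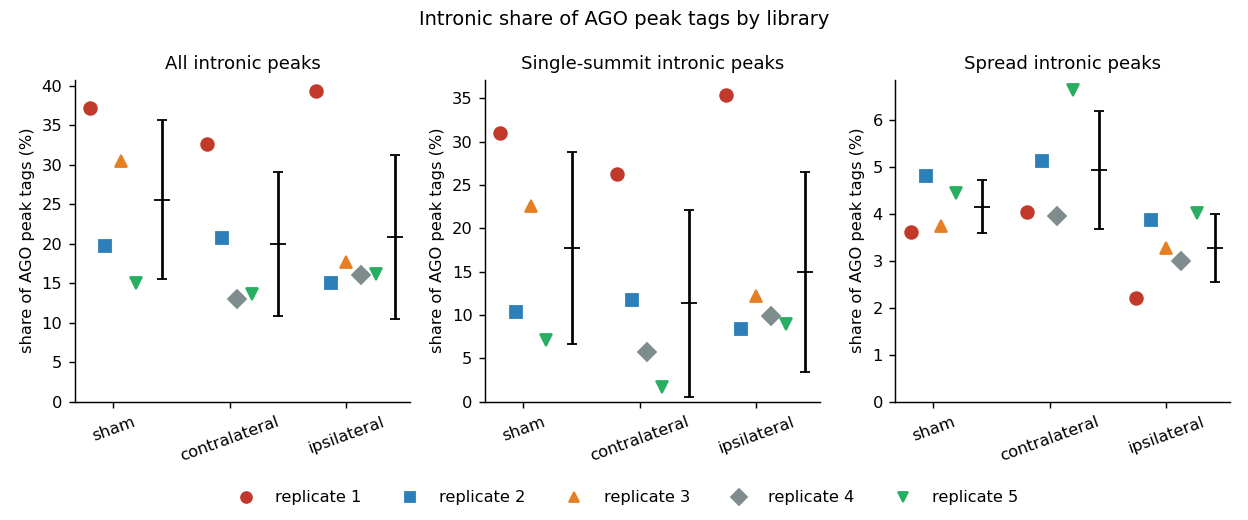
Share of AGO peak tags (%) in all, single-summit and spread intronic peaks, 1 point per library, by group and coloured by replicate number, with mean and SD bars. Replicate 1 (red) is at 32.6% to 39.3% for all intronic peaks and highest in each group for single-summit peaks, but not for spread peaks.

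Set 1 supplied 67.1% of intronic tags and 44.2% of tags elsewhere. Peak by peak, the median single-summit peak drew 72.7% of its tags from set 1 and the median spread peak 40.0%, where set 1 held 50.5% of all tags. The mean of the library shares was higher in set 1 than in the other 10 for 1252 of 1502 single-summit peaks (83.4%) and 191 of 595 spread peaks (32.1%). Among peaks with at least 20 tags, all 3 set 1 libraries lay above all 10 others in 251 of 1011 intronic peaks. That is 24.8%, against 9.97% over all such peaks, 0.848% of 3'UTR peaks, 0.647% of CDS peaks and 32.0% of intergenic peaks. All 3 lay below all 10 in 0 of these intronic peaks, against 0.689% over all peaks. That outcome needs a tag in every one of the 10, and only 14 of the 3810 intronic peaks had a tag in all 13 libraries. The 0 can therefore not show that peaks moved in 1 direction only.

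**Figure D3:**
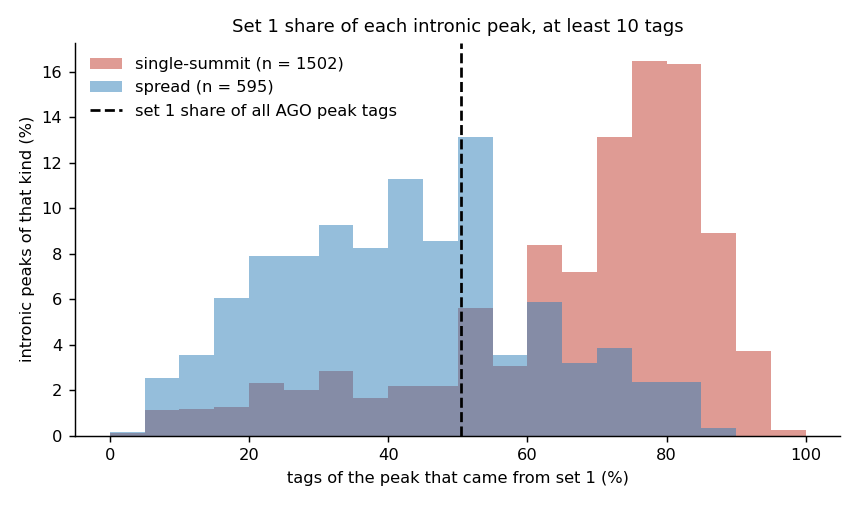
Percentage of each intronic peak's tags that came from set 1, as a histogram of the 1502 single-summit (red) and 595 spread peaks (blue) with at least 10 tags. The dashed line marks the 50.5% of all AGO peak tags that set 1 supplied, and the single-summit peaks lie mostly to its right (median 72.7%) and the spread ones to its left (median 40.0%).

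The comparison of set 1 with the other libraries was tested with edgeR's quasi-likelihood test over every peak with enough tags (238 peaks, 100 of them intronic). It called 51 intronic peaks at an adjusted p under 0.05, 44 higher and 7 lower in set 1. Of the 7 lower ones, 6 passed the filter only through libraries outside set 1, as given below. The higher peaks of Slc26a10, Sema6c, Arl3, Dlg4 and Ptk2b passed it only through set 1 and sham 3. They were thus tested because they were high in set 1, and the other higher peaks were not checked for this. The count of higher peaks is therefore descriptive. Over all tested peaks the rate was 59.2%, with 34% higher and 25.2% lower. All 44 intronic peaks that were higher were single-summit, of 86 such peaks tested with a median log2 fold change of 1.44. Of the 14 spread peaks tested, 0 were called higher and 1 lower, with a median of -0.95. The count moved with single libraries: it was 5 without ipsilateral 1, 28 without contralateral 1 and 78 to 100 without sham 2, sham 3 or contralateral 2, 4 or 5. The split depended on scaling: without TMM factors it was 62 higher and 3 lower, and with DESeq2 32 and 18. Whether intronic peaks were called more or less often than all tested peaks also depended on the setting. DESeq2 called 50% of the intronic peaks against 67.6% of all, and edgeR without TMM factors 65% against 52.9%. With tags outside introns as library size the shares were 73.3% of 116 and 58.7% of 254. Without a filter they were 21.4% of 3810 and 7.66% of 18284, and with at least 20 tags 65.1% of 1011 and 26.4% of 4363. The median of all tested peaks itself moved from 0.82 to 1.42 and 0.33, and single-peak values below are to be read against it.

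Summed over the introns of a gene, the same test covered 128 intronic sums among 570 sums of a gene and region. Here 81 intronic sums were called higher in set 1 and 0 lower, against a background of 16.7% higher and 1.4% lower. At an unadjusted p under 0.05 there were 91 intronic sums in either direction, and DESeq2 called 81 higher and 1 lower (20.2% of all sums in either direction). The median log2 fold change was 2.41 over intronic sums and -0.07 over all sums. The counts rested on ipsilateral 1: without it, 12 sums and 5 peaks were called, all of them higher. Without TMM factors 74 were higher and 13 lower (61.4% of all sums were called), with a median over all sums of -0.96.

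The peaks with most tags show this pattern. An intron of Auh, which encodes a mitochondrial enzyme of leucine breakdown that also binds AU-rich RNA, held the largest intronic peak (chr13:52894210-52894289, 1617 tags, all over 1 summit). It took 66.4, 56.0 and 87.3 tags per 10000 in sham 1, contralateral 1 and ipsilateral 1, and 0 to 43.9 (median 9.16) in the other 10 libraries. All set 1 values lay above all others, with sham 3 the nearest. As a gene sum its log2 fold change was 3.48 (SE 0.68, edgeR adjusted p = 0.0017). The single peak gave a smaller value, 2.15 (SE 0.72, edgeR adjusted p = 0.0100).

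A peak in an intron of Smurf2, a ubiquitin ligase of the TGF-beta pathway (chr11:106914755-106914834, 1438 tags), took 66.8, 54.3 and 84.7 per 10000 in the same 3 libraries. In the other 10 it took 0 to 20.5 (median 4.06), and 0 in contralateral 4 and 5 and in ipsilateral 5. Its sum was higher in set 1 by a log2 fold change of 4.75 (SE 0.63, edgeR adjusted p = 1.99e-04). The same tags tested as a single peak gave 3.51 (SE 0.73, edgeR adjusted p = 5.15e-04).

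Lyrm4, which encodes a partner of the mitochondrial iron-sulphur assembly machinery, had 1 intronic peak (chr13:36030831-36030910, 1338 tags). Its share was 67.0, 51.6 and 72.3 per 10000 in set 1, and in the rest 0 to 30.8 with a median of 1.55. Again every set 1 value exceeded every other value, and the log2 fold change of the sum was 4.88 (SE 0.74, edgeR adjusted p = 4.19e-04). Tested as a single peak, the same tags gave 3.61 (SE 0.75, edgeR adjusted p = 5.15e-04).

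The leading peak of Dscam, a neuronal adhesion molecule (chr16:96980113-96980192, 1275 tags), had 57.0, 45.3 and 75.02 per 10000 in set 1 against 0 to 24.0 (median 5.98). Gramd1b (chr9:40321313-40321392, 1206 tags), a sterol transfer protein, had 54.4, 44.2 and 68.9 against 0 to 31.9 (median 4.33). Both rose in set 1 as gene sums, with log2 fold changes of 3.73 (SE 0.49) and 4.13 (SE 0.65). Their edgeR adjusted p values were 1.99e-04 and 5.21e-04. As single peaks the values were smaller, 2.45 (SE 0.68) and 2.97 (SE 0.73), with edgeR adjusted p = 0.00334 and 0.00133.

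With Smurf2, Lyrm4 and Gramd1b, the 10 called sums with the largest rise were Slc26a10 (4.63), Hyal4 (4.53), Sema6c (4.43), Arl3 (4.29), Dlg4 (4.13), Ptk2b (4.11) and Hiat1 (4.05 on the log2 scale). Dlg4 encodes the postsynaptic scaffold PSD-95, Ptk2b a calcium-dependent tyrosine kinase and Arl3 a small GTPase of the cilium. Slc26a10, Sema6c, Arl3 and Dlg4 reached the tag density that the filter asks for only in set 1 and sham 3. They were thus tested because they were high in set 1, so their calls are descriptive. The same tags tested as single peaks gave 3.44 for Slc26a10, 3.06 for Sema6c, 2.98 for Arl3 and 2.86 for Dlg4. The Dlg4 peak (chr11:70034910-70034989), which is labelled intron but lies wholly in a protein-coding Dlg4 exon of M21, shows how little was seen outside set 1. It had 10.5, 8.22 and 15.2 tags per 10000 in set 1, against 0 to 5.70 with a median of 0.394 in the others.

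Not every large intronic peak followed set 1. The peak of Camk1d, a calcium/calmodulin-dependent kinase (chr2:5379295-5379374, 1233 tags), took 34.2, 39.7 and 17.6 per 10000 in set 1 and 11.5 to 80.0 (median 37.3) in the others. Filip1l (chr16:57391615-57391694, 810 tags, 742 of them over the summit and so a spread peak) took 24.6, 26.3 and 9.68 against 8.00 to 32.4 (median 19.9). Values of both sets overlapped for each, and neither gene sum passed (log2 fold change 0.55, SE 0.35 and 0.72, SE 0.34, edgeR adjusted p = 0.368 and 0.208). As single peaks their log2 fold changes were -1.06 and -0.87, and the sign changed with tags outside introns as library size (0.04 and 0.27). Zfp217, which encodes a zinc finger protein, lay between, with 42.8, 33.1 and 40.8 against 0 to 31.9 (median 13.2) and a sum log2 fold change of 2.29 (SE 0.64, edgeR adjusted p = 0.0178). The same tags tested as a single peak did not pass (0.83, SE 0.72, edgeR adjusted p = 0.281). Among the other peaks with the highest mean share, B4galt6 and Zfp790 passed as single peaks (log2 fold change 2.49, SE 0.69 and 1.77, SE 0.68, edgeR adjusted p = 0.00327 and 0.0232), and Dctd did not (1.01, SE 0.71, adjusted p = 0.186).

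The gene sums with high shares that were made of many peaks did not follow set 1. Kcnip4 had 13.04, 21.9 and 15.97 per 10000 in set 1 and 20.6 to 66.3 (median 27.7) in the others, and Malat1 had 52.4, 72.1 and 37.9 against 41.6 to 136.0 (median 73.7). Their log2 fold changes were -0.01 (SE 0.31) and 0.42 (SE 0.24), with edgeR adjusted p = 0.997 and 0.302.

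**Figure D4:**
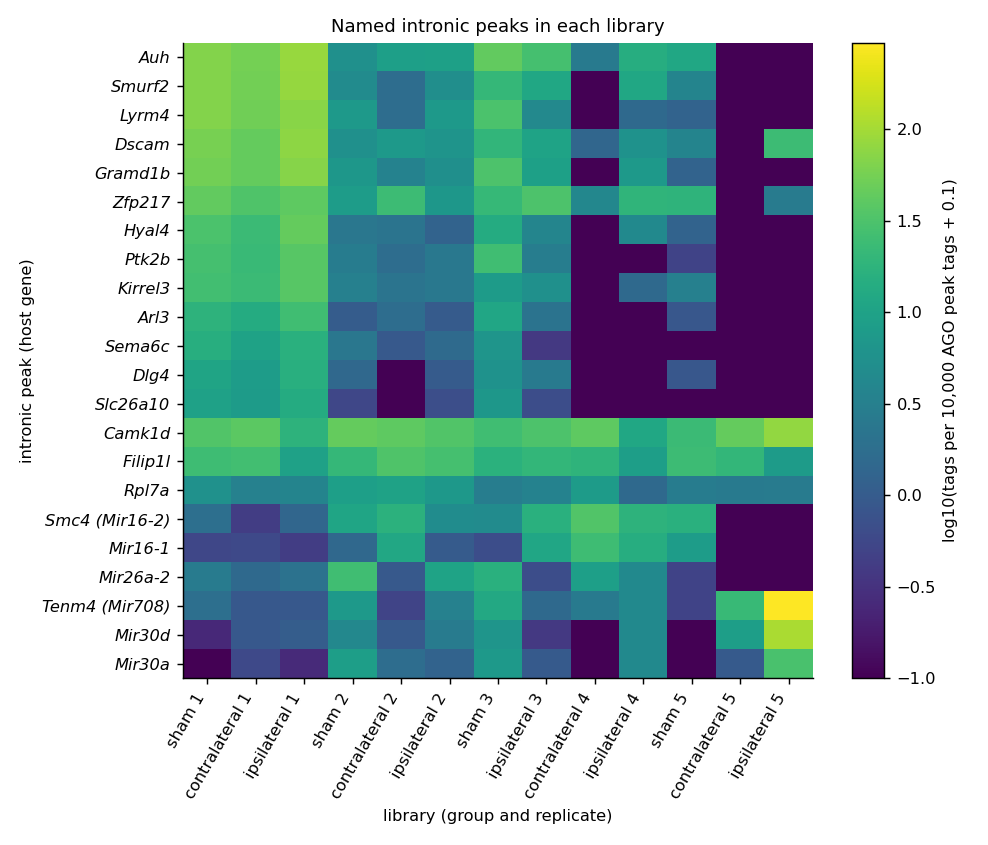
Heat map of 22 named intronic peaks (rows, by host gene) in the 13 libraries (columns, ordered by replicate number), coloured by log10 of tags per 10000 peak tags plus 0.1. The rows from Auh to Slc26a10 are brightest in the 3 libraries of replicate 1, and Camk1d and Filip1l are bright in all libraries. The miRNA hairpin rows are low in replicate 1 and in several other libraries. Mir26a-2 is darker in some of those than in replicate 1. The darkest cells are libraries with 0 tags.

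Runs of A or T under the peaks were counted in the 263 windows with sequence, which hold 7.32% of intronic tags. A run of at least 12 T or at least 12 A, searched on the exon strand so that both strands are covered, occurred in 41 of them (15.6%). The same search found one in 5.80% of 7105 3'UTR windows and 0.335% of 2685 CDS windows. It found one in 5.88% of 85 intergenic, 11.5% of 96 5'UTR and 5 of 15 upstream windows. Of the 41, 26 were T and 15 were A on the exon strand, with a median length of 21 bases, and 33 had the run within 10 bases of the window's centre. These are counts of letters and say nothing of what bound there.

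Windows with a run were mostly single-summit (35 of 41, against 45 of 222 without one) and had a larger share in set 1 in 32 of 41, against 52 of 222. The median percentage of tags from set 1 was 65.8% with a run and 36.4% without. Windows with a run held 35.1% to 57.9% of the sequenced intronic tags in set 1 (mean 46.3%) and 1.73% to 32.5% in the others (mean 16.7%). Of the windows printed above, set 1 gave 84.9% of the 596 tags of Acss2, 68.9% of 322 for Arrdc3, and 92.6% of 81 for C1qbp. Meg3, with a run, did not follow, at 28.8% of 111, and the Malat1 window without a run had 37.0% of 270. The pattern was not particular to introns. The share in set 1 over that in the others was 2.93 with a run and 0.650 without in introns. It was 2.37 and 0.593 in intergenic, 2.46 and 0.499 in 5'UTR and 0.836 and 0.469 in 3'UTR windows. In every other region, too, this ratio and the single-summit rate were higher with a run than without (80% and 42.5% in intergenic, 25.2% and 8.44% in 3'UTR windows). Whether runs and set are connected was not tested.

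The 7 intronic peaks lower in set 1 were that Malat1 peak and 6 on miRNA hairpins, counting the host genes Smc4 and Tenm4. The filter before the test asks for a minimum tag density in several libraries, and these 6 reached it only in libraries outside set 1. They were thus tested because they were high elsewhere, so their calls and adjusted p values below are descriptive. Over the 28 intronic peaks on annotated miRNA genes (1373 tags), set 1 had 13.2, 13.4 and 10.2 tags per 10000. The other sham libraries 2, 3 and 5 had 90.9, 72.4 and 30.7, contralateral 2, 4 and 5 had 35.8, 80.9 and 60.2, and ipsilateral 2 to 5 had 37.6, 35.3, 57.3 and 600. Set 1 lay below all 10 others, and ipsilateral 5, the shallowest library, stood far above.

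Both windows over miR-16-5p were low in set 1 and uneven outside it. Mir16-1 had 0.444, 0.484 and 0.323 tags per 10000 in set 1. It had 8.28 in sham 5, 12.1 in contralateral 2, 24.8 in contralateral 4, 11.3 in ipsilateral 3 and 14.3 in ipsilateral 4, and 0 to 1.37 in the remaining 5 libraries. Smc4, with Mir16-2, was high in the same 5 libraries (15.8, 17.0, 33.9, 16.1 and 17.2), with 11.0 in sham 2, and had 1.78, 0.323 and 1.29 in set 1. The single-peak log2 fold changes in set 1 were -4.62 (SE 1.02, edgeR adjusted p = 5.15e-04) and -4.13 (SE 1.01, edgeR adjusted p = 0.00133).

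The window in Tenm4 over miR-708 drew 111 of its 219 tags from ipsilateral 5, which is 296 per 10000, against 0.394 to 21.8 in the other 12 libraries. Mir30d drew 107 per 10000 there, against 0 to 8.72. In set 1 the log2 fold changes were -3.98 for Tenm4, -4.01 for Mir30d, -4.33 for Mir30a and -2.25 for Mir26a-2 (edgeR adjusted p 0.00651, 0.00327, 0.0016 and 0.0304). For each of these the shares in set 1 overlapped those of the others. Mir26a-2 had 2.67, 1.45 and 1.94 per 10000 in set 1 and 0 to 25.6 (median 2.57) in the others. Set 1 ran from 0.806 to 1.78 for Tenm4, 0.148 to 0.968 for Mir30d and 0 to 0.484 for Mir30a. The medians of the others were 3.78, 3.39 and 1.42. All 6 hairpin values stayed negative under every scaling in which the peak was tested. Without TMM factors the calls for Tenm4, Mir30d and Mir26a-2 were lost (adjusted p = 0.0963, 0.0682 and 0.228), as was the Malat1 call (-0.997, adjusted p = 0.169). As gene sums, Mir16-1, Mir30a and Mir30d were negative and did not pass (-3.11, -2.91 and -2.45, edgeR adjusted p = 0.0898, 0.214 and 0.341).

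Other small RNA genes behaved apart from hairpins. The 26 intronic peaks on snoRNA, snRNA or scaRNA genes held 721 tags, with a median of 53.1% from set 1 against 25% on miRNA genes. Rpl7a, the window printed above, had 5.63, 3.23 and 3.55 tags per 10000 in set 1 and 1.43 to 9.98 (median 3.12) in the others, which overlap. It did not pass (log2 fold change -1.13, SE 0.69, edgeR adjusted p = 0.135).

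The comparison of ipsilateral with sham cortex asks what changed after ischemia. Of 100 intronic peaks tested, edgeR called 0, against a background of 0% of 238. DESeq2 also called 0, and 2 had an unadjusted edgeR p under 0.05. Of 128 intronic sums it called 0 (background 0% of 570), and 9 had an unadjusted p under 0.05. DESeq2 called 1, Phactr1, as lower, which was 0.175% of all sums. The 3 sums with the smallest p values among lower ones were Phactr1, Ptprd and Gria1. Among higher ones they were Tenm4 (log2 fold change 2.69, SE 1.46), Mir30d (2.47, SE 1.57) and Cadm1 (1.13, SE 0.73), with edgeR adjusted p = 0.638, 0.699 and 0.699.

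Phactr1, which encodes a regulator of actin and protein phosphatase 1, had 134 intronic peaks, more than any other gene. Its intronic tags were 35.6, 49.3, 43.3 and 46.5 per 10000 in sham and 7.58, 21.9, 19.5, 22.9 and 45.4 in ipsilateral libraries. Ipsilateral 1 to 4 lay below all sham libraries and ipsilateral 5 did not. The log2 fold change was -1.23 (SE 0.28, edgeR adjusted p = 0.225), which did not pass.

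Gria1, an AMPA-type glutamate receptor subunit, had 5.93, 6.85, 5.70 and 6.70 in sham and 1.29, 3.26, 1.70, 7.17 and 2.67 in ipsilateral libraries. Ptprd, a synaptic receptor phosphatase, had 10.8, 15.1, 15.4 and 16.2 against 3.39, 12.1, 8.76, 8.60 and 16.0. In each, at least 1 ipsilateral library reached the sham range. Neither passed, with log2 fold changes of -1.30 (SE 0.39) and -0.84 (SE 0.24) and edgeR adjusted p = 0.280 for both.

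Among single peaks the smallest p values of higher ones were those of Tenm4 (log2 fold change 3.40, SE 1.35), Mir30d (2.98, SE 1.32) and Gtf2ird2 (0.74, SE 0.97), and of lower ones Mir26a-2 (-1.51, SE 1.07), a Malat1 peak (-0.96, SE 0.94) and Sel1l2 (-0.83, SE 0.94), all with an edgeR adjusted p of 0.996. For Tenm4 and Mir30d, ipsilateral 5 alone had over 100 tags per 10000. Auh, Smurf2 and Lyrm4 differed from sham by -0.03, 0.11 and -0.46 on the log2 scale with SE of 1.02 to 1.11, so a change of 1 log2 unit in them lay within 1 SE.

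Against the contralateral hemisphere of operated animals edgeR again called 0 of 100 intronic peaks (background 0% of 238), with 3 at an unadjusted p under 0.05 and 0 called by DESeq2. It called 0 of 128 sums (background 0% of 570), and 14 had an unadjusted p under 0.05. DESeq2 called 4 sums, all lower: Celf2, Gria1, Nrxn3 and Phactr1. Over all sums it called 9 of 570 (1.58%). Both comparisons share the ipsilateral libraries, so their values are given side by side. The smallest p values among higher sums were those of Pde10a (log2 fold change 1.68, SE 0.61), Lrrc8c (1.80, SE 0.86) and Purg (0.89, SE 0.45), with edgeR adjusted p = 0.372, 0.49 and 0.500. Among single peaks they were Tenm4 (3.11), Mir30d (3.01) and Mir30a (2.76), and in the lower direction 3 Malat1 peaks (-2.31, -1.60 and -0.64), with an edgeR adjusted p of 0.981 for each.

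Celf2, an RNA-binding splicing factor, had 14.8, 24.95, 26.1 and 55.8 intronic tags per 10000 in contralateral and 5.32, 7.10, 5.37, 15.8 and 8.00 in ipsilateral libraries. In sham it had 12.4, 19.2, 13.7 and 15.4. Only ipsilateral 4 reached the range of the other groups. The log2 fold change was -1.68 against contralateral (SE 0.34, edgeR adjusted p = 0.111) and -1.02 against sham (SE 0.34, adjusted p = 0.370).

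Nrxn3, a presynaptic adhesion molecule, had 14.2, 19.5, 18.3 and 35.7 in contralateral, 11.0, 16.9, 10.3 and 18.1 in sham and 5.81, 10.4, 7.92, 8.60 and 13.3 in ipsilateral libraries. All ipsilateral values lay below all contralateral ones and overlapped sham at the lower end. The values were -1.12 (SE 0.24, edgeR adjusted p = 0.111) against contralateral and -0.75 (SE 0.23, adjusted p = 0.281) against sham. Gria1 had 4.84, 11.6, 9.14 and 19.2 in contralateral libraries (-1.76, SE 0.39, edgeR adjusted p = 0.112). Without ipsilateral 1, Celf2 and Nrxn3 passed (adjusted p = 0.0186 and 0.0181), and without ipsilateral 4, Celf2 and Gria1 did (0.0295 for both).

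Contralateral against sham cortex gave 0 called of 100 intronic peaks (background 0% of 238), with 0 at an unadjusted p under 0.05 and 0 called by DESeq2. It gave 0 of 128 sums (background 0% of 570), with 2 at an unadjusted p under 0.05 and 0 called by DESeq2. The smallest p belonged to Pde10a, a striatal phosphodiesterase that splits cyclic nucleotides. It had 4.44, 6.40, 5.13 and 6.31 in sham, 1.29, 0.416, 1.31 and 0.872 in contralateral and 3.39, 3.55, 1.98, 4.30 and 0 in ipsilateral libraries. Contralateral and sham values did not overlap, but the contralateral ones rest on only 8, 1, 1 and 1 tags. The log2 fold change of -2.51 (SE 0.61) did not pass (edgeR adjusted p = 0.702). Next were Ank3 (-0.82, SE 0.34) and Lrrc8c (-1.92, SE 0.89) as lower sums and Celf2 (0.66, SE 0.35), Nrxn3 (0.37, SE 0.24) and Gria1 (0.45, SE 0.38) as higher ones, with an edgeR adjusted p of 0.996 for each.

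Phactr1, Celf2, Nrxn3, Ptprd and Gria1 each carried many intronic peaks, and host genes with many peaks were therefore described as a class, chosen after these values were seen. Leaving out the noncoding RNA Meg3, 38 host genes had 10 or more intronic peaks, 1021 peaks in all, led by Phactr1 (134), Kcnip4 (103), Nrxn3 (59), Celf2 (57), Ptprd (45), Dlg2 (43), Ntm (37), Opcml (36), Grin2b (35) and Rbfox1 (34). Among them are the channel partner Kcnip4, the scaffold Dlg2, the adhesion molecules Ntm and Opcml, the NMDA receptor subunit Grin2b and the splicing factor Rbfox1. Some peaks of the class overlapped M21 exons although labelled intron. These were all 13 of AI414108, 12 of 23 of Ank3 and 12 of 103 of Kcnip4, among others. Introns of the class below means peaks with that label.

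Together their introns took 2.81%, 3.73%, 2.95% and 3.53% of tags in sham libraries, 2.72%, 4.09%, 2.82% and 6.20% in contralateral and 1.83%, 2.10%, 1.84%, 2.11% and 2.83% in ipsilateral libraries. Ipsilateral 1 to 4 lay below every sham and contralateral library, and ipsilateral 5 lay within their range. The means were 3.26 ± 0.446% (SD, n = 4), 3.96 ± 1.62% (n = 4) and 2.14 ± 0.406% (n = 5), a ratio of 0.658 to sham and 0.541 to contralateral. Within replicate numbers the ipsilateral library was the lower one in 4 of 4 pairs in each comparison. The result depended on the denominator. As a share of intronic tags alone, these introns took 14.9 ± 7.53% in sham, 23.8 ± 15.5% in contralateral and 11.9 ± 4.77% in ipsilateral libraries. Those ranges overlapped (7.56% to 23.4%, 8.34% to 45.3% and 4.65% to 17.4%), and ipsilateral 3 (10.4%) lay above sham 3 (9.69%). No p is given, since the class was found in these values.

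Of the 38 genes, 36 had a lower ipsilateral than sham mean and 32 a lower ipsilateral than contralateral mean, against 65.5% and 41.1% of all 1948 host genes. The 30 that were tested had a median log2 fold change of -0.82 against sham and -0.74 against contralateral, where all 128 intronic sums had -0.15 and 0.53. In set 1 against the others their median was 0.16, against 2.41 over all intronic sums. The difference in set 1 between these genes and other hosts was not tested.

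Tags in other regions of the same genes gave another picture. They took 1.66 ± 0.533% in sham (n = 4), 2.09 ± 0.644% in contralateral (n = 4) and 1.72 ± 0.487% in ipsilateral libraries (n = 5), with ranges that overlapped. Of the 27 genes with tags elsewhere, 14 had a lower ipsilateral than sham mean and 21 a lower ipsilateral than contralateral mean. Whether introns and other regions differ in their change was not tested. Tags on neuron marker genes over all regions ranged from 0.729% to 1.73% in sham, 0.990% to 1.76% in contralateral and 0.465% to 2.00% in ipsilateral libraries (9 of 10 genes), so they overlapped, and their part in the lower intronic share was not tested.

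**Figure D5:**
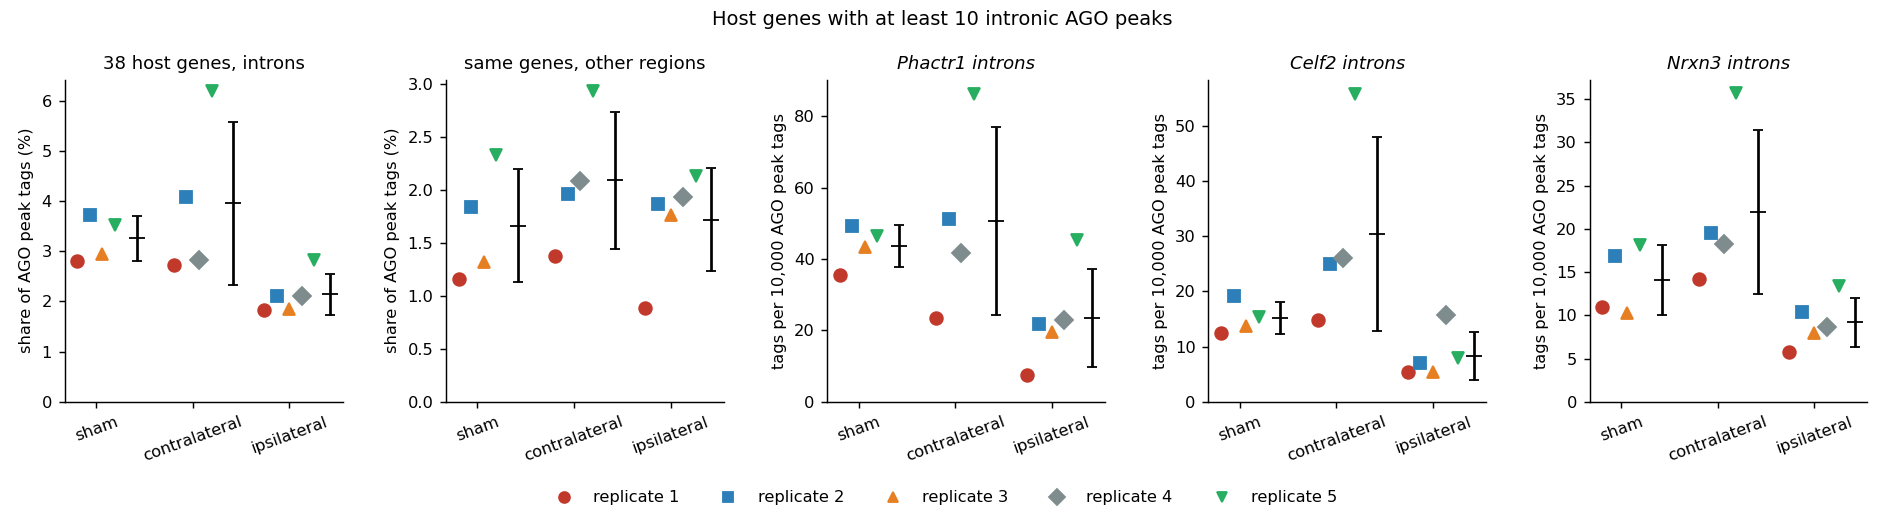
Host genes with at least 10 intronic peaks, 1 point per library by group and replicate number, with mean and SD bars. The panels give the share (%) of the 38 genes' introns and other regions, then tags per 10000 in the introns of Phactr1, Celf2 and Nrxn3. Ipsilateral libraries 1 to 4 lie below all others in the first panel (1.83% to 2.11%) and overlap them in the second.

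Intronic peaks were counted by gene list. Of 50 neuronal adhesion and axon guidance genes 37 had an intronic peak (319 peaks, 5390 tags), of 31 glutamate receptor and scaffold genes 21 (162 peaks, 1869 tags) and of 30 voltage-gated ion channel genes 16 (144 peaks, 1523 tags). Only 1 of 13 glutamate transport and metabolism genes did, the transporter Slc1a2 (GLT-1), with 35 intronic tags. Of 20 GABA signalling genes 7 had one, among them the scaffold gephyrin (Gphn, 169 tags, 94.7% from set 1). Of the cell type markers, 2 of 10 for neurons (37 tags), 1 of 8 for astrocytes and 1 of 7 for vascular cells had one. No intronic peak lay in 17 heat shock genes or in 10 oligodendrocyte, 8 microglial and 7 blood markers.

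With edgeR, no list had a member called in any group comparison. DESeq2 called Celf2, Gria1 and Nrxn3, members of the RNA-binding, glutamate receptor and adhesion lists, lower against contralateral, as given above. In ipsilateral against sham cortex the 5 glutamate receptor sums tested had a median log2 fold change of -0.93 and the 12 adhesion sums -0.62, against -0.15 over all intronic sums. Against contralateral the medians were -0.73 and -0.66, against 0.53. In set 1, 2 of 5 and 2 of 12 were called higher, against 81 of 128. The introns of 30 RNA-binding and splicing factor genes (8 with a peak, 99 peaks, mostly Celf2 and Rbfox1) took 0.243% to 0.375% in sham, 0.313% to 0.898% in contralateral and 0.110% to 0.215% in ipsilateral libraries. All ipsilateral libraries lay below all others, and the 2 sums tested had medians of -1.07 against sham and -1.52 against contralateral. Neither passed with edgeR on all libraries. Celf2, which is 1 of them, passed against contralateral with DESeq2 and with edgeR when ipsilateral 1 or ipsilateral 4 was left out.

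Homer1, an activity-induced scaffold, was the only one of 24 immediate early genes with intronic peaks. All 9 of its peaks (75 tags) lay wholly in an exon of 1 M21 transcript. They took 0.889, 2.28, 0.570 and 3.55 tags per 10000 in sham, 0.645, 2.08, 1.31 and 3.49 in contralateral and 0.807, 5.62, 1.98, 7.17 and 10.7 in ipsilateral libraries. Ipsilateral 2, 4 and 5 were above all others, but on 19, 5 and 4 tags, where sham 5 had 9. The gene had too few tags to be tested.

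For 21 genes both the intronic sum and a sum over another region were tested, so set 1 could be set against the rest of the same gene. The intronic sum was called higher in set 1 for 8 of them, the other sum for 1, and both for 0. Over all features 81 of 128 intronic sums and 16.7% of all 570 sums were called higher, so 8 of 21 is below the rate of intronic sums. Lsamp, an adhesion molecule, had a log2 fold change of 4.00 in its introns and -0.33 elsewhere, and Nsd1, a histone methyltransferase, 3.83 and -0.44. For Dlg4, whose peak labelled intron lies in an M21 exon, the values were 4.13 and 0.72. The intronic sums of Lsamp, Nsd1 and Dlg4 passed the filter only through set 1 and sham 3, so their calls are descriptive. Celf2 was the exception, at 0.15 in its introns and 1.95 elsewhere. These genes, apart from Dlg4 and Celf2, were chosen after their values were seen, and the difference between regions was not tested.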

How the data were processed

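AGO CLIP of mouse cortex gave 13 libraries: 4 sham, 4 contralateral and 5 ipsilateral. The authors deposited raw counts, whole numbers of tags per peak and library, with position, gene and region of each peak. The submitters' processing notes name mm10 and Novoalign. Peak caller, treatment of duplicate tags and the annotation behind the region labels: not given in the sources used here. Tags without molecular identifiers need not be independent molecules, so the 95% Wilson intervals cover counting error only. No column of the table was left unused (0), and 1 row without a position (44 tags) was left out. The deposited miRNA table was not used here.

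Counts were tested with edgeR 4.0.16 (R 4.3.3, limma 3.58.1): TMM factors, filterByExpr by group, glmQLFit on all 13 libraries in 1 fit, two-sided, Benjamini-Hochberg adjustment over all tested peaks or over all sums of a gene and region, and 0.05 as threshold. The set 1 contrast was fitted with group and set 1 as terms. Tested features held 25.4% of tags as peaks and 61.2% as sums, with biological coefficients of variation of 0.907 and 0.627. DESeq2 1.42.0, no TMM factors, tags outside introns as library size, no filter, at least 20 tags per feature, Rn45s left out, the replicate block and leaving out each library were alternatives. The edgeR script was tested on simulated data. Labels give separate samples but not the number of animals, so p-values measure the spread between these libraries.

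Members, lists and tests were chosen with earlier results of these data known. Named were the 12 peaks and 12 sums with the highest mean share, called features (at most 10 per direction) or the 3 smallest p per direction and comparison, the 6 small RNA peaks with most tags, and 2 to 4 genes per list. Overlaps with GENCODE M21 exons used bedtools 2.31.1. The series' design text ties each replicate set to its own surgery day and preparation, so replicate numbers pair libraries. Deviations of same-numbered libraries from their group means were correlated over the tested sums of a gene and region. They ran from -0.13 to 0.84, with 0.83 or more for the 3 pairs of set 1 and at most 0.60 for the others.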

Additional observations from a re-analysis of the deposited data

Results flagged for a closer look

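Of 54 groups of 4 or 5 libraries screened for a library far from the rest of its group, 13 values stood apart. The groups came from intronic shares and from named gene sums picked in these same data. Smurf2, Lyrm4 and Gramd1b were among the sums named for a rise in set 1. A chance rate of about 1 group in 20 therefore does not apply. Most flagged values belonged to set 1, which this choice of sums favoured. Ipsilateral 1 had 39.3% of its tags in introns (others of its group 15.0% to 17.7%) and 35.4% in single-summit intronic peaks (8.41% to 12.2%). The introns of Smurf2 took 54.3 tags per 10000 in contralateral 1 (others 0 to 1.66) and 84.7 in ipsilateral 1 (0 to 11.6). Lyrm4 took 51.6 and 72.3 in the same libraries, Gramd1b 44.5 and 69.4, and Dscam 81.2 in ipsilateral 1 (others 5.73 to 24.0).

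Outside set 1, ipsilateral 5, the library with fewest tags, had 600.3 tags per 10000 in intronic peaks on miRNA genes (others 10.2 to 57.3) and 2.83% in the host genes with 10 or more intronic peaks (others 1.83% to 2.11%). Celf2 introns took 15.8 per 10000 in ipsilateral 4 (others 5.32 to 8.00), and the Malat1 peaks labelled intron took 136.0 in contralateral 5 (others 72.1 to 78.6).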

How the results depend on the processing

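No named gene sum that was followed through the settings changed sign, nor did a named peak called in set 1 under the other scalings. Signs of the remaining called features were not compared. The counts of 0 called peaks in the 3 group comparisons held under all 9 other settings and without each library, and so did the 0 sums of contralateral against sham. Called sums were 1 with DESeq2 for ipsilateral against sham, and for ipsilateral against contralateral 4 with DESeq2, 2 without set 1 and 0 to 4 with 1 library left out (4 without ipsilateral 1, 2 without ipsilateral 4). With the replicate block 0 peaks and 0 sums were called in each comparison, and the paired differences in intronic share were -3.51, 1.68 and -1.66 percentage points (ipsilateral minus sham, ipsilateral minus contralateral, contralateral minus sham), so the block changed no call. Leaving out 1 library moved these shares from -9.31 to -0.839, -3.71 to 5.09 and -9.79 to -1.73. In set 1 against the others, called peaks were 85 of 116 with tags outside introns as library size (58.7% of all peaks tested there), 815 of 3810 without a filter (7.66%) and 658 of 1011 with at least 20 tags (26.4%), and 5 (without ipsilateral 1) to 100 with 1 library left out. Without contralateral 1 there were 28, and 78 to 100 without sham 2, sham 3 or contralateral 2, 4 or 5. Called sums were 738 of 1948 without a filter (15% of all sums) and 604 of 973 with at least 20 tags (24.9%), and 12 (without ipsilateral 1) to 121. The difference in intronic share was 18.6 points (17.1 to 20.5 with 1 library left out) and 28.1 as a share of intronic plus exonic tags. The ratio of expected intronic peaks was 1.77 over peaks with at least 10 tags and 1.89 without thinning. The ratio of ipsilateral to sham for the 38 host genes, an analysis added after seeing the data, ranged from 0.605 to 0.692 with 1 library left out. Over 6 other settings, among them intronic tags as denominator, it ranged from 0.622 to 0.851, the highest for hosts with 5 or more peaks. Against contralateral it ranged from 0.490 to 0.668, and was 0.735 for hosts with 5 or more peaks. Sequence was read for 263 of 3810 windows.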
